A study of Homo sapiens with 4 samples.

Results

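The genes described here are 31 genes of cholesterol and fatty acid synthesis and of its control by the sterol regulatory element-binding proteins (SREBPs). They were chosen by name, with earlier results of these data known. All 31 were found by Ensembl ID among the 58213 gene IDs present in all 4 libraries, and all 31 were measured above a mean level of 1 CPM (counts scaled to a common library total) in every comparison. They comprise 8 genes of the acetyl-CoA and mevalonate steps, 11 of the steps from squalene to cholesterol, 6 of fatty acid synthesis and desaturation, 5 of the SREBP factors and their regulators, and the sterol transfer gene STARD4.

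The data were RNA-seq counts of total RNA from human glioblastoma (GBM) cells, with 1 library for each of 4 conditions. U87MG is an established GBM line, and R-U87MG is its derivative with acquired resistance to the alkylating drug temozolomide (TMZ). R-U87MG cells received non-targeting siRNA (si-NC) or siRNA against HDAC6, a largely cytoplasmic deacetylase (si-HDAC6). U87MG cells received si-NC or siRNA against the long non-coding RNA *LINC00461* (si-*LINC00461*). Each knockdown is thus compared with the control of its own line, and the comparison of R-U87MG with U87MG is between the si-NC libraries. R-U87MG is a single selected line, so the selection, the drug and the passage history cannot be told apart in that comparison. With 1 library per condition the differences have no replicate check, conditions could not be tested, and p-values are not given.

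SREBPs are transcription factors made as membrane proteins of the endoplasmic reticulum. When sterols are low, SCAP escorts them to the Golgi, where proteases release the part that enters the nucleus and switches on the genes of sterol and fatty acid synthesis. When sterols are high, INSIG proteins hold SCAP and the SREBPs in the endoplasmic reticulum. GBM cells are known for a high demand for cholesterol and for a high activity of this pathway.

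The libraries held between 12596072 and 20027866 fragments, at which 3 counts equal 0.150 to 0.238 CPM. The targeted transcripts were lower in their knockdown libraries, HDAC6 with 67 counts against 296 in the control of its line and *LINC00461* with 73 against 363. As markers of the line, VIM, CD44, FN1 and TNC lay between 1604 and 9976 CPM in every library, whereas the astrocyte marker GFAP had 0, 0, 5 and 13 counts in R-U87MG si-NC, R-U87MG si-HDAC6, U87MG si-NC and U87MG si-*LINC00461*, respectively. CHI3L1, the marker of the line that stood furthest apart, was at 42.1 and 44.5 CPM in the R-U87MG libraries and at 3555 CPM in U87MG si-*LINC00461*. Of the other markers of the line, NES lay between 35.0 and 43.0 CPM and S100A6 between 402 and 506 CPM. MOG of oligodendrocytes, AIF1 of microglia and CIDEA of adipocytes had no count in any library, but other markers listed with them did. In the same order of libraries as for GFAP, MBP of oligodendrocytes had 11, 5, 37 and 26 counts. CSF1R of leukocytes had 297, 202, 268 and 149, and ADIPOQ of adipocytes 34, 24, 0 and 0. The summed level of the 5 markers of a cell type ranged over the libraries from 22.7 to 126.8 CPM for neurons, from 0.715 to 2.25 CPM for oligodendrocytes, from 8.78 to 18.1 CPM for leukocytes, from 9.14 to 32.1 CPM for endothelium, from 1.67 to 44.2 CPM for hepatocytes and from 0.563 to 6.67 CPM for adipocytes. The 12 proliferation markers, which include MKI67 and TYMS, summed to 2751 CPM in R-U87MG si-NC, 2363 in R-U87MG si-HDAC6, 1239 in U87MG si-NC and 267 in U87MG si-*LINC00461*, so this level differed between all 4 libraries. In bulk RNA a change in the share of cells of a kind and a change in RNA per cell cannot be told apart.

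The levels of the lipid synthesis genes spanned a wide range within each library. On the scale of CPM per kb of exon, which allows genes to be compared, the median of the 31 genes was 14.3 in R-U87MG si-NC, 15.1 in R-U87MG si-HDAC6, 9.52 in U87MG si-NC and 7.49 in U87MG si-*LINC00461*. ACLY, which makes cytosolic acetyl-CoA from citrate, INSIG1 and the stearoyl-CoA desaturase SCD held the top places in all 4 libraries. ACLY lay between 117 and 185 CPM per kb, INSIG1 between 60.0 and 83.9, and SCD between 47.7 and 155. SCD led the order in U87MG si-NC, and ACLY led it in the other libraries. At the other end, TM7SF2, ACACA and HSD17B7 lay between 0.265 and 2.01, between 0.280 and 0.861 and between 0.318 and 0.897 CPM per kb, respectively. The smallest of these levels, TM7SF2 in R-U87MG si-NC, rested on 15 counts.

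Counted by library, 15 of the 31 genes had their highest CPM in R-U87MG si-HDAC6 and none had its lowest there. The same counts over all genes were not made, so these have no background. CPM rests on library totals, which place R-U87MG si-NC higher against U87MG si-NC, by 0.26 in log2, than the TMM normalization used for the ratios below. U87MG si-*LINC00461* held the lowest CPM of 23 genes and the highest of 3, which were LSS, TM7SF2 and SCAP. U87MG si-NC was highest for 6 genes, namely MVD, SCD, SREBF1, SREBF2, INSIG2 and STARD4, and R-U87MG si-NC for the other 7. The ratio of the highest to the lowest CPM was 1.33 for LSS and ELOVL6 and 7.61 for TM7SF2, followed by 5.88 for INSIG2, 5.75 for MSMO1 and 4.81 for DHCR7. Summed over the 31 genes, the level was 3189 CPM in R-U87MG si-NC, 3344 in R-U87MG si-HDAC6, 3194 in U87MG si-NC and 2339 in U87MG si-*LINC00461*. SCD alone gave 832 CPM of the sum in U87MG si-NC and 256 CPM in U87MG si-*LINC00461*.

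After *LINC00461* knockdown in U87MG cells, most of the lipid synthesis genes were lower than in si-NC, while the genes for SREBF1 and SREBF2 themselves differed little. Ratios are log2 ratios of counts plus 0.5 after TMM normalization, and each is given with the 95% exact binomial (Clopper-Pearson) interval of its counts. The interval covers counting error alone, because each condition has 1 library. PCR copies of a fragment are counted in it as if they were separate molecules. Of the 31 genes, 26 had a lower and 5 a higher value, that is 83.9% lower, where 50.2% of the 13210 genes compared were lower. The median ratio of the 31 genes was −0.22 and that of all genes was 0.00, with 90% of all genes between −1.33 and 1.04. SCD, MVK, STARD4, MSMO1 and DHCR7 were at least 2-fold lower, 16.1% of the genes against a background of 8.17% of all genes, and TM7SF2 and ACACA were at least 2-fold higher, 6.45% against 5.42%. The interval lay wholly below 0 for 17 genes (54.8%, where 33.4% of all genes did), wholly above 0 for 5 (16.1%, where 33.1% did), and held 0 for 9. The 31 genes had a median of 1231 counts in the 2 libraries together and all genes 880, and more counts give narrower intervals. Beside these values, 12 of 12 proliferation markers were lower after si-*LINC00461*, by −0.94 to −3.38, and their part in the lipid gene values was not tested.

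Among the genes of fatty acid synthesis, SCD (ENSG00000099194, GRCh38 chr10:100347124-100364834, plus strand), which introduces the double bond of oleate, was the gene with the lowest ratio of all 31. Its counts were 4864 and 4083 in the si-NC and si-HDAC6 libraries of R-U87MG and 16663 and 4544 in the si-NC and si-*LINC00461* libraries of U87MG. Its levels were 292, 324, 832 and 256 CPM in the same order, so that U87MG si-NC stood apart from the other 3 libraries. The ratio after si-*LINC00461* was −1.69 (interval −1.74 to −1.64). FADS1, a desaturase of polyunsaturated fatty acids, was at 223, 209, 105 and 54.0 CPM in the same order of libraries, with a ratio of −0.94 (−1.05 to −0.83) after si-*LINC00461*. FASN, the synthase of palmitate, was at 226, 281, 167 and 113 CPM, with a ratio of −0.55 (−0.63 to −0.47). FADS2, the desaturase ahead of FADS1, had 379, 286, 273 and 167 counts and a ratio of −0.52 (−0.81 to −0.24). Its gene contains FEN1, a nuclease of DNA replication, on the same strand, with 2477, 1720, 1479 and 538 counts. Fragments of the pair may therefore not be separable, and the FADS2 value is uncertain. FADS2 also overlaps FADS1 on the opposite strand. Fragments may be shared there too if the counting did not use strand. ELOVL6, which elongates palmitate, was nearly level at −0.10 (−0.20 to −0.01). ACACA, the carboxylase that makes malonyl-CoA, went the other way, with 153, 141, 73 and 164 counts in the 4 libraries and a ratio of 1.35 (0.95 to 1.77). Here too U87MG si-NC was the library apart, with 3.64 CPM where the other 3 lay between 9.19 and 11.2 CPM.

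All 8 genes of the acetyl-CoA and mevalonate steps had a lower value after si-*LINC00461*, with a median of −0.25, and the interval excluded 0 for 5. Mevalonate kinase, MVK (ENSG00000110921, chr12:109573255-109598117, plus strand), had 248, 203, 290 and 91 counts in R-U87MG si-NC, R-U87MG si-HDAC6, U87MG si-NC and U87MG si-*LINC00461*, or 14.9, 16.1, 14.5 and 5.12 CPM. The first 3 libraries lay close together and the knockdown library was lowest, with a ratio of −1.48 (−1.84 to −1.14). MMAB, which lies head to head with MVK and overlaps it on the opposite strand, had 236, 184, 228 and 84 counts. Whether the counting used strand is not given in the sources used here, so the 2 genes may share fragments. The decarboxylase MVD had a ratio of −0.71 (−0.91 to −0.52) and the thiolase ACAT2 one of −0.67 (−1.04 to −0.32), on 610 and 327 counts for MVD. IDI1, an isomerase, was at −0.34 (−0.56 to −0.13) and ACLY at −0.15 (−0.19 to −0.11). By contrast, HMGCS1, the synthase at the entry to the mevalonate pathway, had 638 and 530 counts and a ratio of −0.08 (−0.25 to 0.09). PMVK, the kinase that follows MVK, was at −0.03 (−0.27 to 0.20) and FDPS, which makes farnesyl diphosphate, at −0.09 (−0.25 to 0.06), so for these 3 no difference was detectable at this depth.

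Of the 11 genes from squalene to cholesterol, 8 had a lower and 3 a higher value, and their ratios spread most widely. MSMO1 (ENSG00000052802, chr4:165327623-165343160, plus strand), a methylsterol oxidase, had 712, 688, 498 and 169 counts, or 42.8, 54.6, 24.9 and 9.51 CPM, in the 4 libraries, and a ratio of −1.37 (−1.63 to −1.12). DHCR7 (ENSG00000172893, chr11:71428193-71452868, minus strand), the reductase of the last step, was at 78.8, 91.8, 44.5 and 19.1 CPM, with a ratio of −1.21 (−1.39 to −1.03). For both genes the order of the libraries was the same, with R-U87MG si-HDAC6 highest and U87MG si-*LINC00461* lowest. The rate-limiting epoxidase SQLE was at −0.33 (−0.49 to −0.18), the lanosterol demethylase CYP51A1 at −0.24 (−0.39 to −0.08) and the squalene synthase FDFT1 at −0.22 (−0.35 to −0.10). The intervals of EBP, HSD17B7 and SC5D held 0. LSS, the cyclase that forms lanosterol, was higher at 0.31 (0.11 to 0.50), with 413 and 449 counts, and NSDHL, a sterol dehydrogenase, at 0.48 (0.27 to 0.69), with 338 and 413. TM7SF2 (ENSG00000149809, chr11:65111845-65116384, plus strand), a sterol reductase, had 15, 31, 33 and 122 counts in the 4 libraries and the highest ratio of the 31 genes, 2.06 (1.51 to 2.67). It overlaps VPS51 on the same strand, which had 961, 820, 1124 and 691 counts, so its low counts may include fragments of its neighbour.

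The transcripts of both SREBPs hardly differed. SREBF1, whose protein acts mainly on fatty acid genes, was counted 3757 times in the control and 3186 times in the knockdown, a ratio of −0.05 (−0.12 to 0.02). SREBF2, whose protein acts mainly on sterol genes, had 3364 and 2886 counts and a ratio of −0.03 (−0.11 to 0.04). INSIG1, itself a target of the SREBPs, was at −0.01 (−0.08 to 0.05), whereas INSIG2 was at −0.23 (−0.33 to −0.13). SCAP was the exception, with 2426 and 3172 counts and a ratio of 0.57 (0.50 to 0.65). STARD4 (ENSG00000164211, chr5:111496033-111512590, minus strand), a carrier of sterols between membranes, was at 30.4, 34.9, 46.1 and 17.6 CPM in R-U87MG si-NC, R-U87MG si-HDAC6, U87MG si-NC and U87MG si-*LINC00461*, with a ratio of −1.38 (−1.57 to −1.19).

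**Figure D1:**
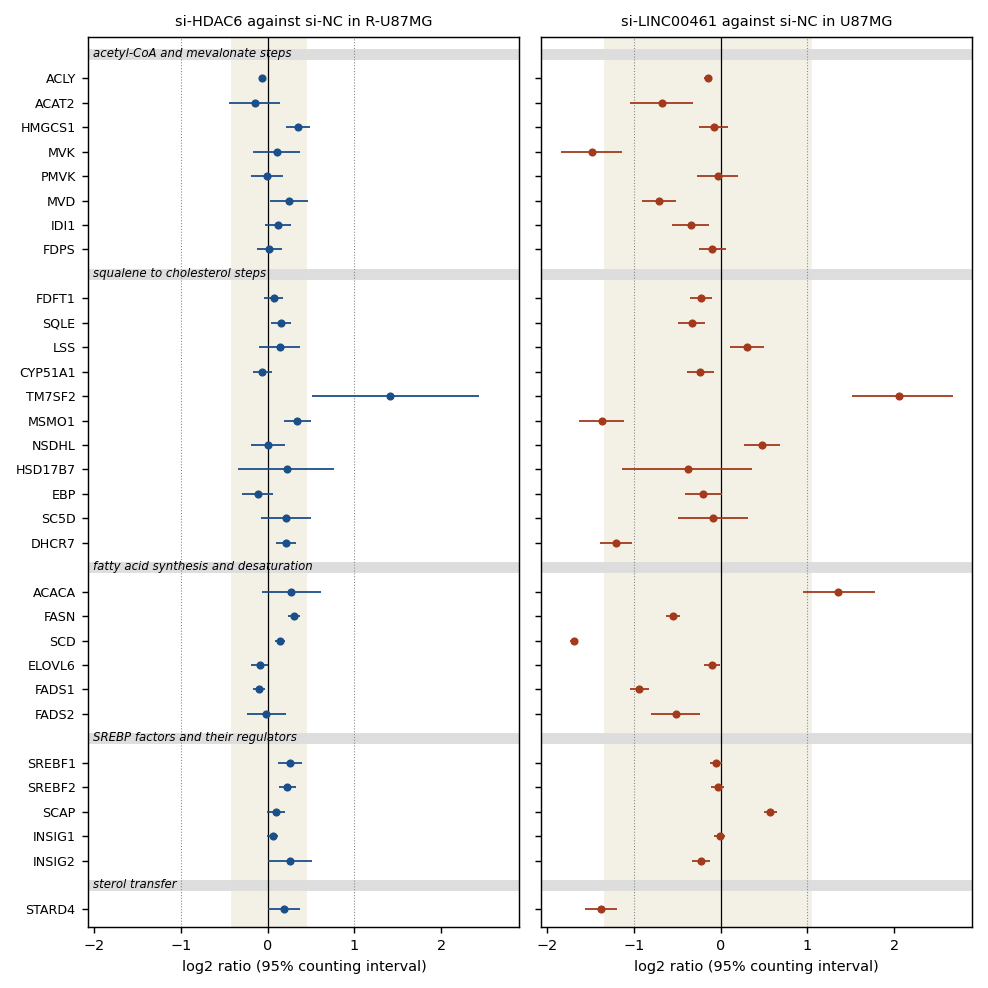
log2 ratio of each of the 31 genes with its 95% counting interval after HDAC6 knockdown in R-U87MG (left) and after LINC00461 knockdown in U87MG (right). The shaded band holds the middle 90% of all genes compared and the dotted lines mark 2-fold; on the right SCD, MVK, STARD4, MSMO1 and DHCR7 lie beyond the lower line and TM7SF2 and ACACA beyond the upper line.

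The promoters of the 5 genes that were at least 2-fold lower after si-*LINC00461*, and that of SREBF2, are shown because the shared control of this pathway acts there. A window of 300 bases, 250 before the annotated start and 50 after it, was available from RefSeq on GRCh38.p14 for 27 of the 31 genes, in 37 windows, and none for ACAT2, FASN, FDFT1 and SQLE. The letters searched on both strands were TCACNCCAC and its shorter form TCACNCCA, the core of a sterol regulatory element, CCAAT, the box bound by NF-Y, and CACGTG, an E-box that SREBPs can bind. The longer form overlaps the shorter by definition, and no other matches overlapped in the windows shown. TCACNCCAC was found in 1 of the 37 windows, that of SREBF2, and in 1.13% of all 35116 windows of this length. TCACNCCA was found for MSMO1, MVK and SREBF2, in 8.11% of the 37 windows and in 3.95% of all windows. CCAAT was found in 24 of the 37 windows (64.9%), from 20 of the 27 genes, and in 34.6% of all windows, and CACGTG in 5 windows (13.5%), from INSIG1, LSS, SC5D and SCAP, and in 7.26% of all windows. A match is a description of letters and not evidence of binding, and a missing exact match is not evidence that an element is absent. The windows shown are chr22:41832855-41833154 (plus strand) for SREBF2, chr10:100346983-100347282 (plus) for SCD, chr12:109573544-109573843 (plus) for MVK, chr5:111512486-111512785 (minus) for STARD4, chr4:165327419-165327718 (plus) for MSMO1, and chr11:71448344-71448643 and chr11:71448994-71449293 (both minus) for the downstream and the upstream start of DHCR7. They are written 5′ to 3′ on the strand of the gene, with each match in capitals on either strand.
SREBF2: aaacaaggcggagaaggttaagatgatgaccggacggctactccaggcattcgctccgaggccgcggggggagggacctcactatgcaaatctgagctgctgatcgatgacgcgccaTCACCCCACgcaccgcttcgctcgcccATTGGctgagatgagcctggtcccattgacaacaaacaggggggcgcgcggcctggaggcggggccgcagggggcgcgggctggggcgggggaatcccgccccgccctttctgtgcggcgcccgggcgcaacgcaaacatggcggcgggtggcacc
SCD: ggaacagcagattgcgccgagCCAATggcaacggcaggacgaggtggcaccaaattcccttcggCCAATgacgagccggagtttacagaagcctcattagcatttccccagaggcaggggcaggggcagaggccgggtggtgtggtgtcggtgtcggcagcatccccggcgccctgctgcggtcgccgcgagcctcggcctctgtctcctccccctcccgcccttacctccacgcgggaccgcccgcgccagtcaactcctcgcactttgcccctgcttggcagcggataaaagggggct
MVK: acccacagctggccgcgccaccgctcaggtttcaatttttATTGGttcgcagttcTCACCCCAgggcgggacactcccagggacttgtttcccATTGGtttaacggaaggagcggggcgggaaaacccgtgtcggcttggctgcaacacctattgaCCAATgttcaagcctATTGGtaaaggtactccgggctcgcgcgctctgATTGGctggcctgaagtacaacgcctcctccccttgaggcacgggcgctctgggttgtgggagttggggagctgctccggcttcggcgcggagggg
STARD4: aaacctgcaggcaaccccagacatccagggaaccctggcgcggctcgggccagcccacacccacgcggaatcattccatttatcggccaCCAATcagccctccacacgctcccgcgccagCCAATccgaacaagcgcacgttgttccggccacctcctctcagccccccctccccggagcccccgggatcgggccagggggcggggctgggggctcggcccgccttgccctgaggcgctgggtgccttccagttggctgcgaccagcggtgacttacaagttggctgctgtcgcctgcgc
MSMO1: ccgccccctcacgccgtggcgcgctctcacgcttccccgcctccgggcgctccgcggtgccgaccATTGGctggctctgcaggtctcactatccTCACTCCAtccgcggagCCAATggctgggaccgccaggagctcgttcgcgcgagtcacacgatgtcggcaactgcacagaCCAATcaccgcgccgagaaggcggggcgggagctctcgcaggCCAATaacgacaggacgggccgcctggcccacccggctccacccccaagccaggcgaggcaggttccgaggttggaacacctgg
DHCR7, downstream window: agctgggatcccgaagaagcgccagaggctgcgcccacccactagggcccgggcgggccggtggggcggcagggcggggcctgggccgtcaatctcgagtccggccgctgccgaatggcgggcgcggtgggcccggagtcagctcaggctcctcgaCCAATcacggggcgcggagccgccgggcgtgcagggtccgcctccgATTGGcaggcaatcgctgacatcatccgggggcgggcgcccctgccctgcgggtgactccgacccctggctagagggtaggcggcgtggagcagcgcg
DHCR7, upstream window: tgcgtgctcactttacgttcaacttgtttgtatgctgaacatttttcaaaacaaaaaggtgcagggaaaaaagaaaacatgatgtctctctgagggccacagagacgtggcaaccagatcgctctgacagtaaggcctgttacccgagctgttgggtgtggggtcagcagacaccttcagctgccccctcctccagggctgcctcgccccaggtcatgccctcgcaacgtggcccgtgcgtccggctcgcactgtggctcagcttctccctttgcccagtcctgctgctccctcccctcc

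In the window of SREBF2 the sterol element began 133 bases before the start and a reversed CCAAT box 106 bases before it. MVK held 5 CCAAT boxes and the shorter sterol element, and MSMO1 held 4 and the shorter sterol element. SCD and STARD4 each held 2 CCAAT boxes and none of the other letters. DHCR7 held 2 CCAAT boxes in its downstream window and no match in the upstream one. After si-*LINC00461*, SREBF2, with the longer sterol element, had a ratio of −0.03, and MVK and MSMO1, with the shorter form, had −1.48 and −1.37. SCD, STARD4 and DHCR7, without an exact match to either form in these windows, had −1.69, −1.38 and −1.21. All but SREBF2 were shown because they were at least 2-fold lower, and whether the letters bear on the ratios was not tested.

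After HDAC6 knockdown in R-U87MG cells, the lipid synthesis genes lay slightly above si-NC as a group, and none but TM7SF2 differed by 2-fold. Of the 31 genes, 23 had a higher and 8 a lower value, that is 74.2% higher, where 48.9% of the 13120 genes compared were higher. Their median ratio was 0.14 and that of all genes −0.01, with 90% of all genes between −0.42 and 0.44. The interval lay wholly above 0 for 11 genes (35.5%, where 13.8% of all genes did), wholly below 0 for 2 (6.45%, where 16.4% did) and held 0 for 18. TM7SF2 was at least 2-fold higher, which is 3.23% of the genes against 0.694% of all genes, and none was at least 2-fold lower, where 0.747% of all genes were. Its 15 and 31 counts gave a ratio of 1.41 (0.51 to 2.43). The 31 genes had a median of 1443 counts in these 2 libraries together, and all genes 861.5. The proliferation markers were lower in 12 of 12 cases, by −0.02 to −0.38, and their part in these values was not tested.

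Of the 11 genes with an interval above 0 after si-HDAC6, 6 belong to sterol synthesis and 2 encode the SREBPs. HMGCS1 was at 50.6 CPM in the control and 65.0 CPM in the knockdown, from 842 and 819 counts, with a ratio of 0.35 (0.21 to 0.49). MSMO1 was at 0.34 (0.19 to 0.50), DHCR7 at 0.21 (0.09 to 0.33) and SQLE at 0.15 (0.04 to 0.27). All 5 of the SREBP factors and their regulators had a higher value, with a median of 0.23. SREBF1 was at 54.1 and 65.2 CPM, a ratio of 0.26 (0.12 to 0.40), and SREBF2 at 103 and 121 CPM, a ratio of 0.23 (0.13 to 0.33). INSIG2 was at 0.25, with an interval from just below 0 to 0.51, and those of SCAP and INSIG1 held 0 as well. MVD at 0.24 (0.02 to 0.46) and STARD4 at 0.19 had intervals that began next to 0.

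Among the fatty acid genes, FASN had 3768 and 3543 counts, or 226 and 281 CPM, and a ratio of 0.30 (0.24 to 0.37). SCD was at 0.14 (0.08 to 0.20). FADS1 at −0.10 (−0.17 to −0.03) and ACLY at −0.06 (−0.10 to −0.03) were the 2 genes with an interval below 0, by small amounts, from 3707 and 2635 counts for FADS1 and 16061 and 11711 for ACLY. ACACA, ELOVL6 and FADS2 had intervals that held 0. In the squalene to cholesterol steps 9 of 11 genes had a higher value, with a median of 0.15, and in the acetyl-CoA and mevalonate steps 5 of 8, with a median of 0.06.

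The 2 knockdown comparisons share no library, but they were made in different lines. Side by side, 18 of the 31 genes had a higher value after si-HDAC6 and a lower one after si-*LINC00461*, 8 were lower in both and 5 were higher in both. These counts include ratios close to 0 whose sign is not settled: NSDHL, counted as higher in both, was at −0.03 after si-HDAC6 with the libraries thinned to the smallest total. For the joint directions no share over all genes was computed. Taken singly, 74.2% of the 31 genes were higher after si-HDAC6 and 83.9% lower after si-*LINC00461*. Over the 31 genes the ratios correlated at 0.07 by rank (Spearman) and at 0.46 by value (Pearson). The value by Pearson depends on TM7SF2, which had the highest ratio in both comparisons, 1.41 and 2.06. The next highest after si-HDAC6 was HMGCS1 at 0.35. The correlation without TM7SF2 was not computed. *LINC00461* itself was lower after si-HDAC6, with 154 and 80 counts and a ratio of −0.55 (−0.96 to −0.15). All 5 genes that were at least 2-fold lower after si-*LINC00461*, namely SCD, MVK, STARD4, MSMO1 and DHCR7, had a higher value after si-HDAC6, where the interval of MVK held 0. TM7SF2 was at least 2-fold higher in both, at low counts in each.

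**Figure D2:**
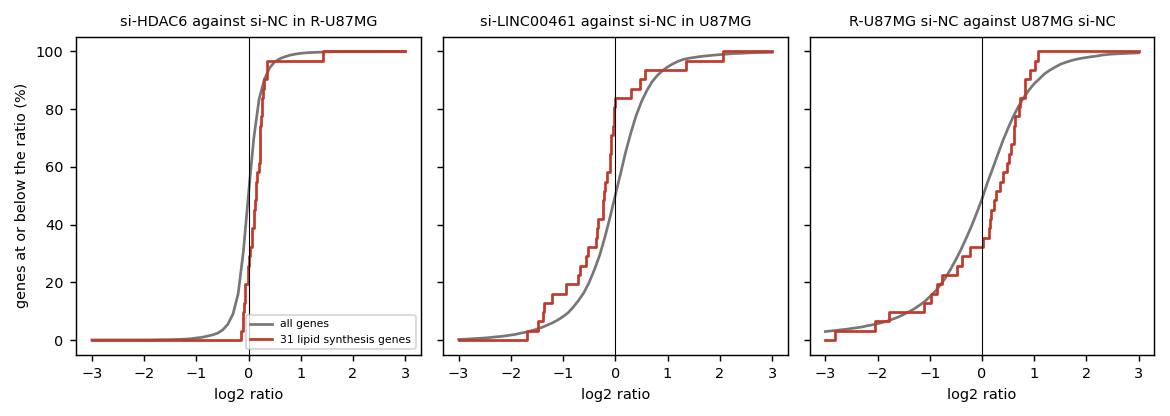
Cumulative share of genes (in percent) at or below each log2 ratio, for the 31 lipid synthesis genes (stepped line) and all genes compared (smooth line), in the 3 comparisons. At a ratio of 0 the line of the 31 genes stands at 25.8% after HDAC6 knockdown, at 83.9% after LINC00461 knockdown and at 32.3% between the lines, with all genes near the middle in each.

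Between the si-NC libraries of the 2 lines, most enzymes were higher in R-U87MG than in U87MG, whereas the SREBP factors, SCAP and INSIG2 were lower. This comparison shares its R-U87MG library with the HDAC6 comparison and its U87MG library with the *LINC00461* comparison, so the 3 are not independent. Of the 31 genes, 21 had a higher and 10 a lower value in R-U87MG, that is 67.7% higher, where 51.1% of the 13349 genes compared were higher. Their median ratio was 0.27 and that of all genes 0.02, with 90% of all genes between −2.19 and 1.44. The interval lay wholly above 0 for 20 genes (64.5%, where 39.4% of all genes did), wholly below 0 for 9, where 38.8% of all genes did, and held 0 for MVK and ELOVL6. At least 2-fold lower were INSIG2, SREBF1, SCD and TM7SF2, 12.9% of the genes against 15.0% of all genes, and at least 2-fold higher were ACACA and CYP51A1, 6.45% against 11.2%. Library totals in place of TMM would shift every ratio of this comparison upward by 0.26, and the values here are relative to TMM. The proliferation markers were higher in R-U87MG in 12 of 12 cases, by 0.50 to 1.75, and their part in these values was not tested.

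INSIG2 (ENSG00000125629, chr2:118088452-118110997, plus strand), the INSIG gene that is known to be little driven by SREBPs, was the gene furthest apart. Its counts were 272 and 247 in the R-U87MG libraries and 1924 and 1444 in the U87MG libraries, or 16.3, 19.6, 96.1 and 81.2 CPM. The 2 R-U87MG libraries were low and the 2 U87MG libraries high, each pair being a control and a knockdown and not replicates. The share of all genes with this arrangement was not computed. The ratio between the si-NC libraries was −2.82 (−3.01 to −2.63). SREBF1 (ENSG00000072310, chr17:17810399-17837002, minus strand) had the same arrangement, at 54.1, 65.2, 188 and 179 CPM, with a ratio of −2.06 (−2.16 to −1.95). Its gene overlaps RAI1 on the opposite strand, which had 864, 726, 2008 and 1602 counts. SREBF2 (ENSG00000198911, chr22:41833079-41907308, plus strand) was at 103, 121, 168 and 162 CPM, a ratio of −0.97 (−1.06 to −0.89), and SCAP at 105, 113, 121 and 178 CPM, a ratio of −0.48 (−0.57 to −0.39). INSIG1, in contrast, was slightly higher in R-U87MG, at 0.13 (0.07 to 0.19).

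The ratio of SCD between the lines was −1.77 (−1.82 to −1.73), and like its ratio after si-*LINC00461* it rests on the level of the U87MG si-NC library. STARD4 was lower in R-U87MG at −0.86 (−1.02 to −0.71), MVD at −0.76 (−0.95 to −0.57) and LSS at −0.39 (−0.60 to −0.17). TM7SF2, with 15 and 33 counts, was at −1.11 (−2.12 to −0.21). The remaining enzymes lay level or higher in R-U87MG. In the squalene to cholesterol steps 9 of 11 genes had an interval above 0, with a median of 0.61 for the list. CYP51A1 led it with 1553 and 775 counts and a ratio of 1.01 (0.88 to 1.13), just past 2-fold, although its values in the U87MG libraries were not whole fragment numbers. SC5D, a sterol desaturase, followed at 0.92 (0.59 to 1.26), SQLE at 0.71 (0.58 to 0.84), EBP, a sterol isomerase, at 0.64 (0.46 to 0.82), NSDHL at 0.62 (0.42 to 0.82) and HSD17B7, a sterol ketoreductase, at 0.61 (0.01 to 1.23). DHCR7 was at 0.56 (0.44 to 0.68), MSMO1 at 0.52 (0.35 to 0.69) and FDFT1 at 0.27 (0.16 to 0.38).

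In the acetyl-CoA and mevalonate steps 6 of 8 genes had an interval above 0, with a median of 0.29. IDI1 was at 47.4 CPM in R-U87MG si-NC and 22.2 CPM in U87MG si-NC, a ratio of 0.83 whose interval began at 0.66, and PMVK at 32.8 and 16.5 CPM, a ratio of 0.72 (0.52 to 0.92). HMGCS1 was at 0.40 (0.25 to 0.55), ACAT2 at 0.34 (0.06 to 0.63), ACLY at 0.23 (0.20 to 0.26) and FDPS at 0.15 (0.01 to 0.29). Of the fatty acid genes, ACACA was at 1.07 (0.66 to 1.49), on 153 and 73 counts, and FADS1 at 0.83 (0.75 to 0.90), on 3707 and 2095. FADS2 was at 0.48 (0.25 to 0.71) and FASN at 0.17 (0.10 to 0.24), while ELOVL6, at 0.03 (−0.06 to 0.12), did not differ detectably.

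**Figure D3:**
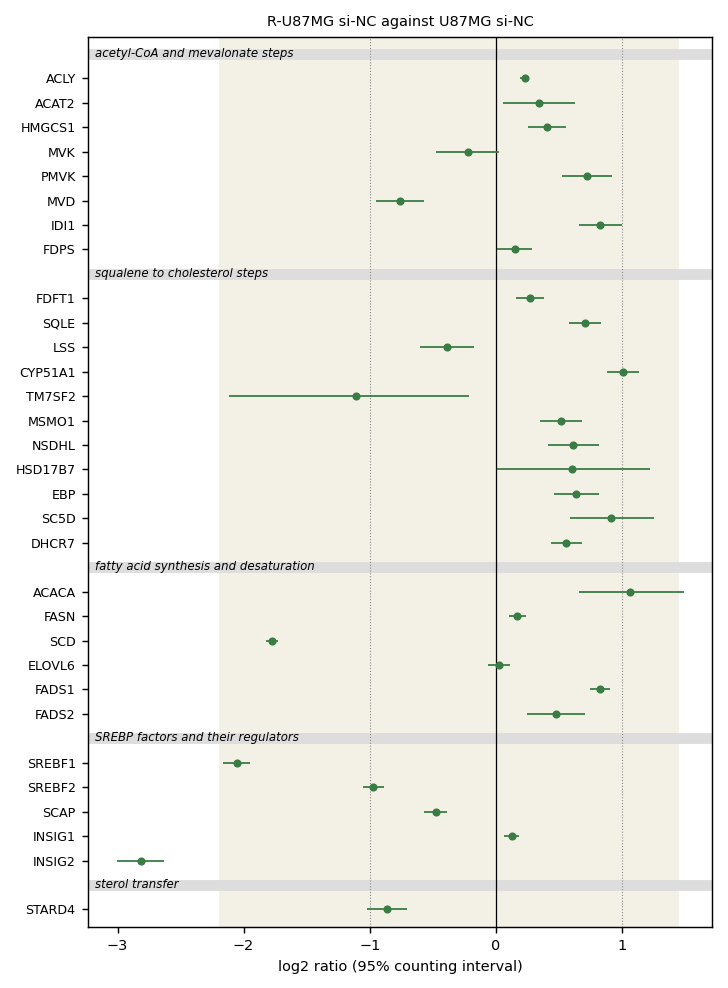
log2 ratio of R-U87MG si-NC to U87MG si-NC for each of the 31 genes with its 95% counting interval, grouped by role. The shaded band holds the middle 90% of all genes compared and the dotted lines mark 2-fold; INSIG2, SREBF1, SCD and TM7SF2 lie beyond the lower line, and most genes of the squalene to cholesterol steps lie to the right of 0.

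**Figure D4:**
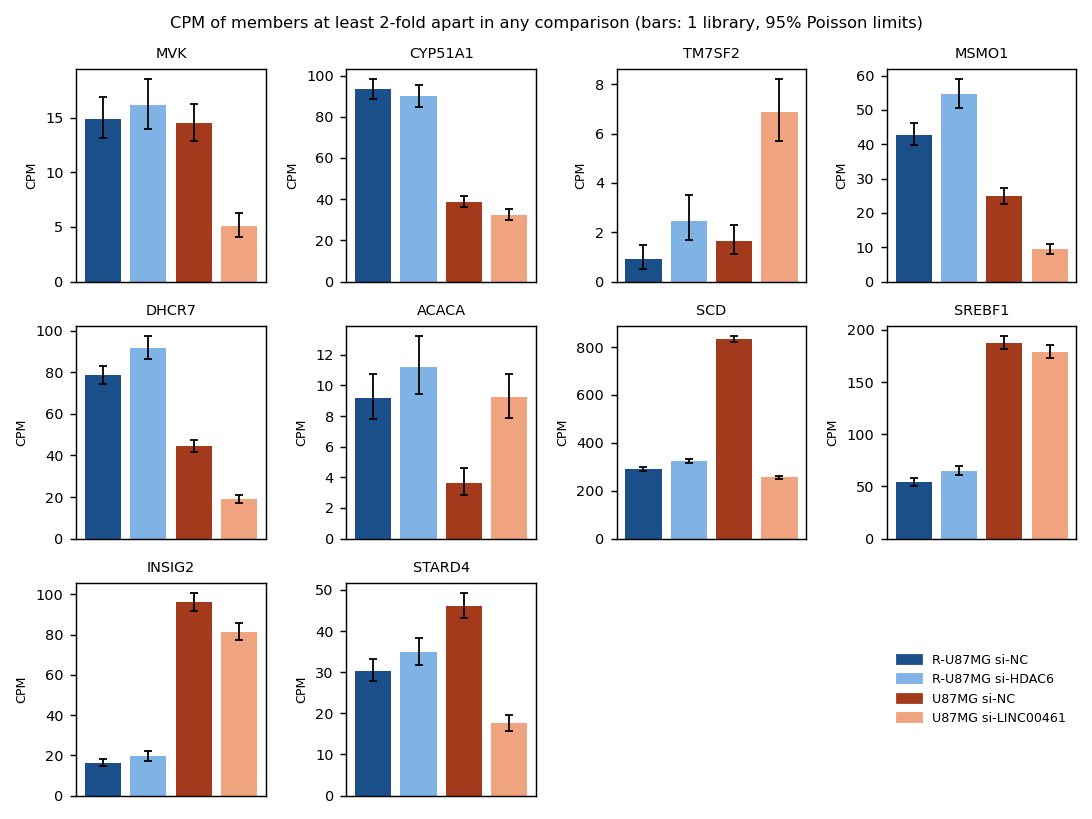
CPM in the 4 libraries of the 10 genes that were at least 2-fold apart in any of the 3 comparisons, with 95% Poisson limits of the counts as error bars. SCD is highest in U87MG si-NC, SREBF1 and INSIG2 are high in both U87MG libraries, and MSMO1, DHCR7, MVK and STARD4 are lowest in U87MG si-LINC00461.

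Genes around the pathway did not show a shared direction after si-*LINC00461*, where 50.2% of all genes compared were lower. Of 13 genes of SREBP processing and degradation, 8 had a higher and 5 a lower value, with a median of 0.21, from −0.48 for ERLIN2 to 0.79 for RNF139, an ubiquitin ligase of the endoplasmic reticulum. Of the 14 measured genes of the isoprenoid branch, 6 were higher and 8 lower, with PDSS1 of ubiquinone synthesis at −0.69 and the farnesyltransferase subunit FNTA at 0.54. Of 8 measured liver X receptors and their targets, 6 were higher and 2 lower, from −0.68 for MYLIP to 0.64 for LPCAT3, and of 13 measured genes of sterol uptake, transport and esterification, 7 were higher and 6 lower, with NCEH1, a cholesteryl ester hydrolase, at 1.07. The other genes of fatty acid elongation, activation and desaturation were split 10 to 9, with ACSS2, which makes acetyl-CoA from acetate, at 1.05. In glycerolipid synthesis and lipid droplets 7 genes were higher and 6 lower. AGPAT5, an acyltransferase, was at −2.04 and HILPDA, a lipid droplet protein, at −1.84, whereas DGAT2, which completes triglycerides, was at 1.27 and LPIN2 at 1.15. In fatty acid oxidation 10 were higher and 8 lower, with PPARGC1A at 2.02 and the mitochondrial enzymes ACADM at −1.49, ETFA at −1.39 and HADH at −1.27. The medians of these 7 lists lay between −0.06 and 0.21, above the −0.22 of the 31 synthesis genes.

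After si-HDAC6 no gene of these 7 lists was 2-fold apart. Of all genes compared, 0.694% were at least 2-fold higher and 0.747% at least 2-fold lower, so a count of 0 lies near the background. The medians of the 7 lists lay between −0.05 and 0.09. The ratios furthest from 0 were those of FADS3, of the fatty acid desaturase family, at 0.46 (0.30 to 0.62) and CPT1B, a carnitine palmitoyltransferase, at −0.41. CPT1B had only 37 and 21 counts, and its interval of −1.27 to 0.38 held 0. Between the lines, by contrast, 7 of 8 measured liver X receptors and their targets were lower in R-U87MG, with a median of −0.61. Of all genes compared between the lines, 48.9% were lower. The sterol exporter ABCA1 was at −1.68. The 13 measured genes of sterol uptake, transport and esterification were split, 7 higher and 6 lower, with a median of 0.01. Among them, the lipoprotein receptors VLDLR and LRP1 were at −2.94 and −1.92, and the sterol carrier STARD5 at −1.60. SOAT1, which esterifies cholesterol for storage, was at 1.44. In glycerolipid synthesis and lipid droplets 9 of 12 measured genes were lower, HILPDA being at −5.48, while the acyltransferase GPAM was at 1.38. Of 13 genes of SREBP processing and degradation, 6 were higher and 7 lower. MBTPS1, a protease that cleaves SREBPs, was at −1.27, and PAQR3, a Golgi anchor of SCAP, at 1.37. In the isoprenoid branch 9 genes were higher and 5 lower, with a median of 0.35. The other genes of fatty acid elongation, activation and desaturation were split 8 to 11, and those of fatty acid oxidation 9 to 9.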

How the data were processed

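The authors sequenced strand-specific libraries of total RNA, and per the labels the reads were handled with bcl2fastq, Trimmomatic 0.36 and HISAT2 on GRCh38.p13. The counter and the annotation are not given in the sources used here. The deposited values are expected counts, that is estimated fragments of each Ensembl gene, times a factor shared by all genes of a library; 94.2 to 94.5% of the values above 0 were whole multiples of that factor, within 0.02 plus the rounding of the files. The factor was divided out and the expected counts were rounded to whole fragments. Of 58226 IDs, 57888 matched GENCODE 29.

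Ratios were computed on the whole table with TMM effective sizes (edgeR 4.0.16, R 4.3.3) and a pseudocount of 0.5, which understates changes of low genes, for genes whose mean CPM was 1 or more. Intervals were computed with scipy 1.17.1. With 1 library per condition, no condition was tested. All 31 genes are named. From the lists around the pathway, only some of the genes at least 2-fold apart or of the extremes are named, at most 4 per list and comparison. A gene of these lists that is not named may therefore also be 2-fold apart. The genes and lists were chosen with earlier results of these data known. Alternatives are given in the closing section.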

Additional observations from a re-analysis of the deposited data

How the results depend on the processing

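Results were recomputed with other scalings (library totals, upper quartile, and DESeq2 size factors from DESeq2 1.42.0), a pseudocount of 0.1 or 5, thinning of each library to 12596071 fragments, a mean CPM of at least 5, no filter on low counts, the values as deposited, whole fragment numbers only, and a 1.5-fold threshold. The values as deposited were not run between the lines, because the authors scaled the 2 pairs separately. No gene at least 2-fold apart changed sign. In the HDAC6 comparison, the number of genes with an interval below 0 was 1 after thinning, and the number at least 2-fold higher was 0 at a mean CPM of at least 5, which TM7SF2 does not reach. In the *LINC00461* comparison, 1 gene was at least 2-fold higher at a mean CPM of at least 5, and 8 were lower by at least 1.5-fold. Between the lines, the median ratio was 0.53 with library totals. The number at least 2-fold higher there was 5 with library totals, 1 with upper-quartile scaling and 1 with whole fragment numbers only, and at 1.5-fold 10 genes were higher and 7 lower. The sign changed for 7 genes, all with an interval that held 0. After si-HDAC6 these were PMVK (0.00 with library totals and as deposited, 0.04 after thinning), FDPS (−0.01 after thinning) and NSDHL (−0.03 after thinning). After si-*LINC00461* they were INSIG1 (0.01 with upper-quartile scaling, 0.03 after thinning) and HMGCS1 (0.01 after thinning). Between the lines they were MVK, from −0.22 to 0.04 with library totals, and ELOVL6 (−0.02 with upper-quartile scaling). No paired analysis was possible because each condition has 1 library, and for the same reason no replicate could be left out. Depth limits TM7SF2, HSD17B7 and ACACA, which had 15 to 164 counts per library.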
